A study of Mus musculus with 12 samples.

Results

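The liver makes fatty acids from sugar when food is plentiful, and this work follows the transcripts of 9 genes of that route, *Srebf1*, *Mlxipl*, *Thrsp*, *Acly*, *Me1*, *Acaca*, *Fasn*, *Elovl6* and *Scd1*, through a zinc and a glucocorticoid treatment. The genes were taken by symbol as the core enzymes of lipogenesis and its regulators, by a rule that does not use their counts. They were chosen with earlier results of these data known, and each matched 1 row of the 54838 in the table of read counts. All 9 passed the filter on low counts in each comparison.

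The 12 livers came from C57BL/6J mice in 4 groups of 3. Control mice (water-PBS) drank normal water and were injected with PBS. Zinc-PBS mice had 25 mM ZnSO4 in the drinking water for 7 days before the same injection, water-Dex mice had normal water and an injection of 200 µg dexamethasone (Dex), which activates the glucocorticoid receptor, and zinc-Dex mice had both. Livers of all groups were taken 2 h after the injection, so the animals shared strain, duration of watering and time of sampling. The labels give no age or sex for single mice, but the study states that its purchased C57BL/6J mice were female. In all 12 libraries *Xist* had 4599 to 7803 normalized counts, and 4 Y-linked genes summed to 0 to 1 raw counts, the pattern of female mice. The labels number the 3 samples of each group as replicates.

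In hepatocytes, citrate leaves the mitochondrion and is split by ATP citrate lyase (*Acly*) to acetyl-CoA, while malic enzyme (*Me1*) supplies NADPH. Acetyl-CoA carboxylase (*Acaca*) and fatty acid synthase (*Fasn*) then build palmitate, which *Elovl6* elongates and the desaturase *Scd1* makes monounsaturated. Insulin drives the pathway through the transcription factor SREBP-1 (*Srebf1*), which is made as a membrane-bound precursor, and glucose drives it through ChREBP (*Mlxipl*). *Thrsp*, also called Spot14, is a small protein named for its response to thyroid hormone that promotes lipogenesis.

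Levels are read counts divided by the DESeq2 size factor of the library and are called normalized counts. Total counts lay between 9091152 and 12303527 per library. A gene was called changed at a DESeq2 adjusted p under 0.05 with an absolute log2 fold change (LFC) above 0.8, where the p-value was adjusted over all genes tested. These p-values set the difference between group means against the spread between mice within groups, which was estimated for each gene over all groups. The tissue was checked by its markers: albumin and 4 other hepatocyte markers were high in each library, and 6 pancreas markers summed to at most 1.10 normalized counts. Of 7 adipocyte markers, *Lep* and *Retn* were at 0 in all 12 libraries and *Adipoq*, *Plin1* and *Cfd* did not exceed 1.11 normalized counts. The other two, *Car3* (15410 to 24220) and *Fabp4*, were present.

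The levels of the 9 genes spanned a wide range. Per kilobase of exon, *Scd1* was highest in water-PBS with 24196 ± 606 normalized counts (SD, n = 3). It was followed by *Thrsp* (1130.0 ± 447), *Acly* (917 ± 97.5), *Fasn* (885 ± 242), *Me1* (646 ± 12.9), *Elovl6* (380.1 ± 51.5), *Mlxipl* (367 ± 32.4), *Srebf1* (343 ± 100.2) and *Acaca* (80.2 ± 24.7). *Scd1* stood apart from all others by far more than the spread between mice, and *Acaca* stood below all others. The neighbours from *Thrsp* to *Me1* and from *Elovl6* to *Srebf1* did not differ beyond their SD. In water-Dex mice, *Thrsp* was at 5437 ± 987 and *Srebf1* at 96.4 ± 2.43 normalized counts per kilobase.

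**Figure D1:**
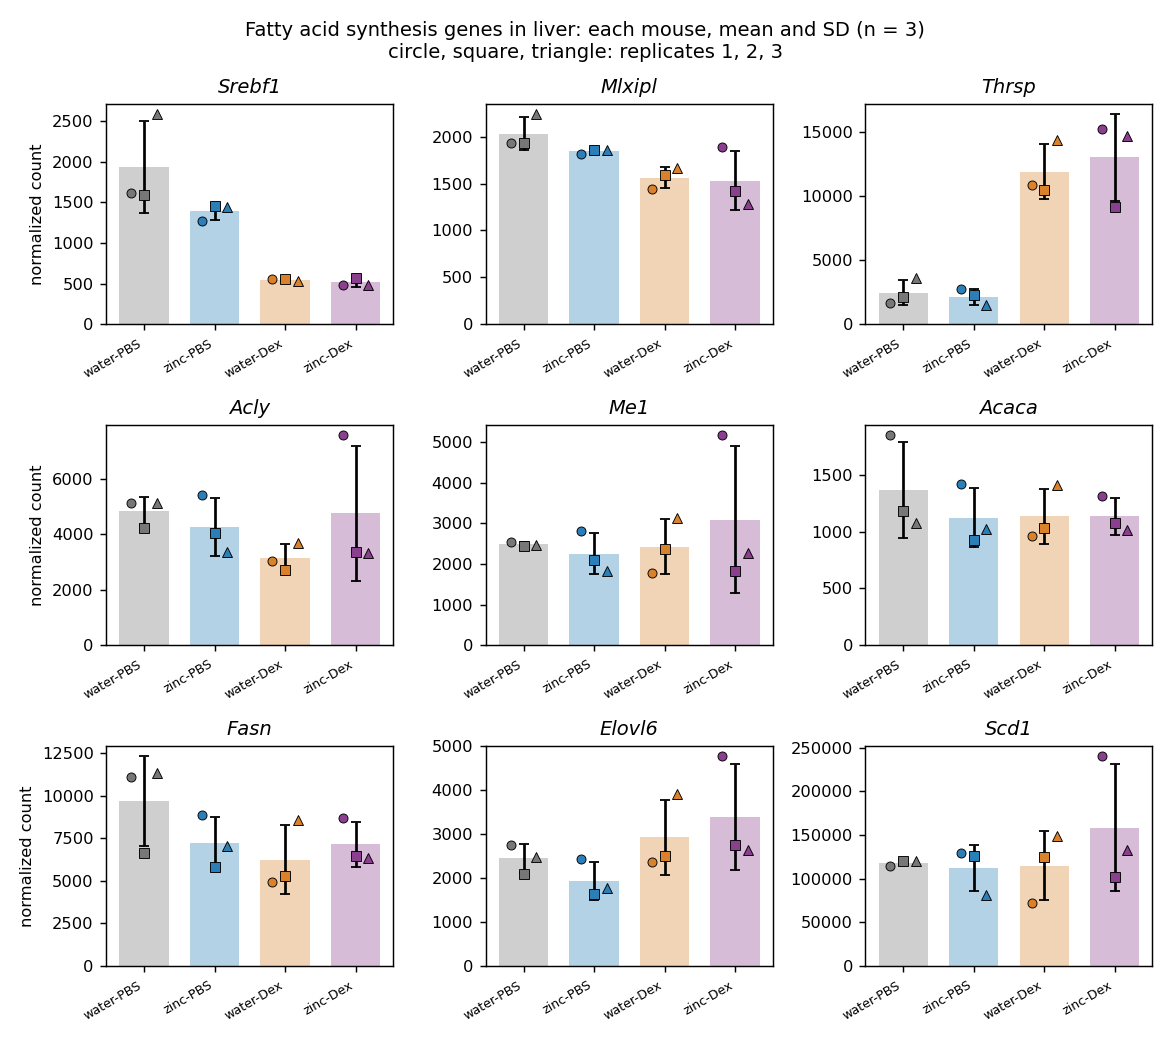
Normalized counts of the 9 genes in each mouse by group, with bars for the mean and error bars for the SD (n = 3); circle, square and triangle are replicates 1, 2 and 3. *Srebf1* is at or below 574 in all Dex-injected mice and at or above 1265 in all PBS-injected mice, *Thrsp* goes the other way, and the enzymes overlap between most groups.

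The first question was what Dex did to the pathway within 2 h in mice on normal water. *Srebf1* fell and *Thrsp* rose, each by several fold, while the 6 enzymes and *Mlxipl* stayed under the thresholds. Thus 2 of the 9 genes were called, 1 in each direction, where 9.68% of the 14221 genes tested were called, 4.89% higher and 4.79% lower. The median LFC of the 9 genes was -0.27, and it was -0.01 over all genes tested.

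*Srebf1* (ENSMUSG00000020538, mm10, chromosome 11, 60199089 to 60222581, minus strand) had 1618, 1595 and 2584 normalized counts in water-PBS replicates 1 to 3. In water-Dex mice it had 551, 551 and 527. The highest Dex-injected mouse was therefore far below the lowest control, and replicate 3 of the controls was the highest of all 12 mice. The LFC was -1.83 (SE 0.165, DESeq2 adjusted p 9.88e-27), which leaves 0.281 of the control level. Over 20 alternative fits it lay between -1.95 and -1.56, the latter without water-PBS replicate 3, and the gene was called in each of them. The table gives 1 count for the whole gene, so transcripts from its different starts, which encode the SREBP-1a and SREBP-1c forms, were not separated. An exon of *Rai1* lies on the opposite strand within *Srebf1*, and *Rai1* had only 69.5 to 138.5 normalized counts per library, with an LFC of -0.17 with Dex (DESeq2 adjusted p 0.622).

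*Thrsp* (ENSMUSG00000035686, chromosome 7, 97412938 to 97417730, minus strand) went in the opposite direction. Its levels were 1693, 2155 and 3571 normalized counts in water-PBS and 10857, 10463 and 14386 in water-Dex mice. Each Dex-injected mouse was above each control, and the control range itself was wide. The LFC was 2.27 (SE 0.346, DESeq2 adjusted p 1.4e-09), a 4.81-fold rise, and it lay between 2.06 and 2.63 in 20 alternative fits, all of which called it. No gene overlaps *Thrsp* in the annotation.

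To show what stands in front of the 2 genes that moved in opposite directions, their start regions are printed from RefSeq (GRCm38.p6), each from 250 bases before to 50 bases after an annotated start, read 5′ to 3′ on the strand of the gene. *Srebf1* has 3 such windows and *Thrsp* has 1. Capitals mark the NF-Y box CCAAT on either strand (written ATTGG where it is on the other strand), the only one of 4 searched motifs found in these windows.
*Srebf1*, chr11:60222532-60222831, minus strand: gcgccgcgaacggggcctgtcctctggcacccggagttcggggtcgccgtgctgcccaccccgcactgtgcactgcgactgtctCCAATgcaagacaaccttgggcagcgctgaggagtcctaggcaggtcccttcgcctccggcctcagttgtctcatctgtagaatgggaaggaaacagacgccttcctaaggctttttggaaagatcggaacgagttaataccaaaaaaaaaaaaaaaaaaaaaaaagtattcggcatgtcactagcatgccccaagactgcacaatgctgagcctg
*Srebf1*, chr11:60220578-60220877, minus strand: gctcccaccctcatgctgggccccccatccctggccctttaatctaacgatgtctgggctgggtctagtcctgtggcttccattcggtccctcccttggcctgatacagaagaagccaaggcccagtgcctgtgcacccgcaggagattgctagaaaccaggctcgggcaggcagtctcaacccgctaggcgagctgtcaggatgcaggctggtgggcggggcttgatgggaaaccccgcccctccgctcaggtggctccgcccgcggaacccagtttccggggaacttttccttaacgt
*Srebf1*, chr11:60210422-60210721, minus strand: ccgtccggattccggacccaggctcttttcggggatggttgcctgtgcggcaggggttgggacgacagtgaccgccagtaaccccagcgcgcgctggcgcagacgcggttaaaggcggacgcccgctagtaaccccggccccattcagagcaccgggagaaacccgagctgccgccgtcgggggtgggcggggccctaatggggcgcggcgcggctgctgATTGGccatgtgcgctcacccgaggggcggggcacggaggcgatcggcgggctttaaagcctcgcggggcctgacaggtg
*Thrsp*, chr7:97417501-97417800, minus strand: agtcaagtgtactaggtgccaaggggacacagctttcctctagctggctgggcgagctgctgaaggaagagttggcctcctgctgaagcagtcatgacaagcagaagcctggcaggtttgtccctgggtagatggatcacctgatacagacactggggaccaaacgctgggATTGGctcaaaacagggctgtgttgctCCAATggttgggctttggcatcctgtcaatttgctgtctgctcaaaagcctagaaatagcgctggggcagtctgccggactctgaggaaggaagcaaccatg

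Windows of this kind were given for 8 of the 9 genes, 12 windows in all, with none for *Scd1*. CCAAT was in 7 of the 12, against 37.4% of 32544 windows of all genes. The E-box CACGTG, to which ChREBP and SREBP-1 can bind, was in 1 of the 12 (7.17% of all windows), and the SRE was in 1 of the 12 (1.24% of all windows), both in *Mlxipl* but at different starts of that gene. The half-site AGAACA of the glucocorticoid response element was in 2 of the 12, at *Acaca* and at *Mlxipl* (18.9% of all windows). The motifs were searched on both strands. A match describes these letters only, and distant elements were not looked at.

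*Mlxipl* (ENSMUSG00000005373, chromosome 5, 135089890 to 135138382) had 1928, 1929 and 2239 normalized counts in water-PBS and 1437, 1591 and 1664 in water-Dex mice. The groups did not overlap, but the difference was small. Its LFC was -0.38 (SE 0.129, DESeq2 adjusted p 0.0205), under the fold threshold. Without water-PBS replicate 3 its DESeq2 adjusted p was 0.13. By adjusted p alone, 21.6% of all genes tested passed, 9.91% lower.

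Of the enzymes that supply carbon and NADPH, *Acly* (chromosome 11, 100476353 to 100528000) had 5125, 4244 and 5146 normalized counts in water-PBS and 3052, 2719.5 and 3696 in water-Dex mice. The 3 Dex-injected mice were all below the 3 controls, with an LFC of -0.62 (SE 0.354) and a DESeq2 adjusted p of 0.23. *Me1* (chromosome 9, 86581371 to 86695953) had 2540.3, 2443 and 2477 in water-PBS and 1782, 2358 and 3128 in water-Dex mice. Here the controls were nearly equal and the Dex-injected mice lay on both sides of them (LFC -0.04, DESeq2 adjusted p 0.967).

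*Fasn* (chromosome 11, 120805846 to 120824547) had 11118, 6639 and 11318 normalized counts in water-PBS and 4922, 5266 and 8568 in water-Dex mice. Control replicate 2 and Dex replicate 3 crossed, so the groups overlapped. The LFC was -0.63 (SE 0.298, unadjusted p 0.0341, DESeq2 adjusted p 0.122). Each of these mice decided the call: without water-PBS replicate 2 the LFC was -0.84 (DESeq2 adjusted p 0.00224), and without water-Dex replicate 3 it was -0.93 (DESeq2 adjusted p 0.000495). *Acaca* (chromosome 11, 84129672 to 84401651) had 1852, 1179 and 1074 in water-PBS and 966, 1029.5 and 1416 in water-Dex mice, which overlapped (LFC -0.27, DESeq2 adjusted p 0.433).

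Next come the enzymes that elongate and desaturate the chain. *Elovl6* (chromosome 3, 129532355 to 129638495) had 2758, 2098 and 2478 normalized counts in water-PBS and 2352, 2503 and 3911 in water-Dex mice, with overlapping groups (LFC 0.26, DESeq2 adjusted p 0.639). *Scd1* (chromosome 19, 44394455 to 44407879) had 114945, 120228 and 119920.0 in water-PBS against 72218, 124724 and 148414 in water-Dex mice. The controls differed by little, while the Dex-injected mice were spread on both sides (LFC -0.04, DESeq2 adjusted p 0.961).

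Without overlap between the groups, 3 of the 9 genes were lower (*Srebf1*, *Mlxipl* and *Acly*) and 1 was higher (*Thrsp*) with Dex, against 19.2% and 19.8% of all genes tested. The intervals bound what may have been missed. The 95% interval of the LFC was -1.22 to -0.05 for *Fasn*, -1.31 to 0.08 for *Acly*, -0.69 to 0.15 for *Acaca*, and -0.75 to 0.67 for *Scd1*. The interval of *Srebf1* (-2.15 to -1.51) lay wholly below those of the 6 enzymes. In whole liver, fewer cells of a type and less RNA per cell cannot be told apart. The summed hepatocyte markers also moved with Dex, from 1147000 to 1371000 normalized counts in water-PBS to 1498000 to 1588000 in water-Dex mice, and their part in these results was not tested. Of the 5, *Alb* (LFC 0.30) and *Apoa1* (LFC 0.59) passed the adjusted p and 0 were called. *Fabp4*, the 1 adipocyte marker called, went from 102, 115 and 91.2 normalized counts in water-PBS to 283, 261 and 262 in water-Dex mice, with *Lep*, *Retn* and *Adipoq* at or near 0 as above, while *Car3* and the 6 macrophage markers had 0 calls. Of 5 endothelial markers, *Lyve1* rose (LFC 2.53) and *Kdr* fell (LFC -1.14), and the sum of the 5 was 2635 to 2974 normalized counts in water-PBS and 2946 to 3205 in water-Dex mice. The summed cholangiocyte and stellate cell markers were at 3316 to 3521 and 3558 to 3627, with 0 of 6 called and 1 lower by adjusted p. Of these, *Lrat* had 360 to 376 normalized counts in water-PBS and 183 to 301 in water-Dex mice. The summed red blood cell markers were at 888 to 1561 and 1212 to 2135, with 0 of 5 called and 1 higher by adjusted p. Of the 14221 genes tested, 1657 were higher and 1410 lower by adjusted p. The part of these markers in the results was not tested either.

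**Figure D2:**
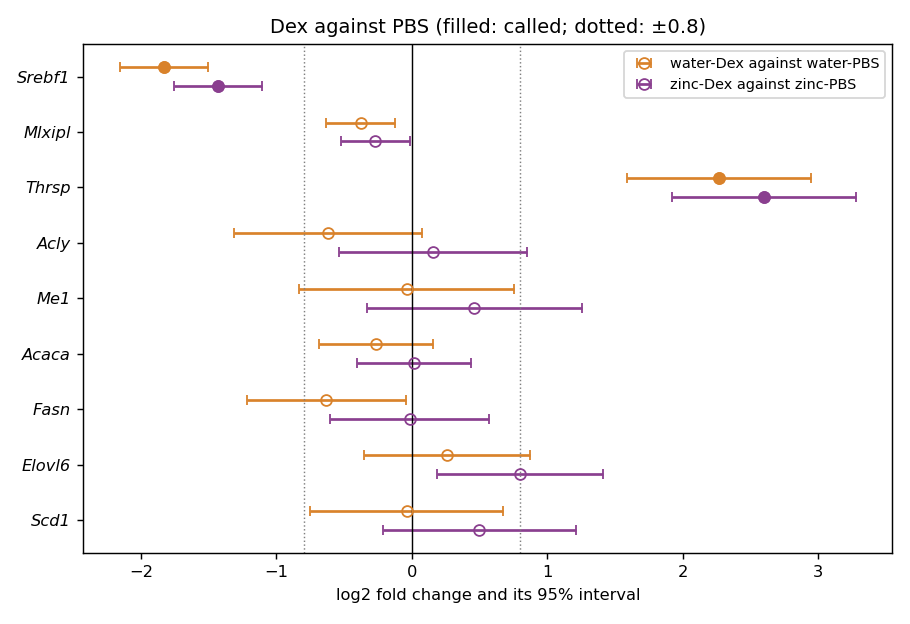
LFC of the 9 genes with Dex in mice on normal water (orange) and on zinc water (purple), with 95% intervals from the DESeq2 fit; filled points were called, and dotted lines mark an LFC of 0.8 in either direction. *Srebf1* (-1.83 and -1.43) and *Thrsp* (2.27 and 2.60) are called in both, and the 7 others lie between them.

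The same comparison was made in zinc-treated mice, which share no library with the first. Again 2 of the 9 genes were called, the same 2 genes in the same directions, where 9.68% of 15657 genes tested were called (5% higher and 4.68% lower). *Srebf1* had 1265, 1459.9 and 1436 normalized counts in zinc-PBS and 480.1, 574 and 487 in zinc-Dex mice. The groups were far apart and both were tight (LFC -1.43, SE 0.165, DESeq2 adjusted p 2.15e-16). *Thrsp* had 2728, 2259.7 and 1468 in zinc-PBS and 15272, 9136 and 14673 in zinc-Dex mice (LFC 2.60, SE 0.346, DESeq2 adjusted p 2e-12), a 6.05-fold rise. Both calls held in all 20 alternative fits of this comparison.

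Among the others, *Elovl6* was nearest to a call. It had 2434, 1626 and 1769 normalized counts in zinc-PBS and 4772, 2746 and 2629 in zinc-Dex mice, without overlap between the groups. Its LFC was 0.7995 (SE 0.312) with a DESeq2 adjusted p of 0.0513, just short of both thresholds, and it was called with TMM factors (LFC 0.81, DESeq2 adjusted p 0.0457) and without zinc-PBS replicate 1, zinc-Dex replicate 2 or zinc-Dex replicate 3 (LFC 0.93 to 0.996). Without zinc-Dex replicate 1 its LFC was 0.47. Without overlap between the groups, 2 of the 9 genes were higher (*Thrsp* and *Elovl6*) and 1 was lower (*Srebf1*), against 19.5% and 18.6% of all genes tested.

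*Mlxipl* (LFC -0.27, DESeq2 adjusted p 0.137), *Fasn* (-0.02, 0.981), *Acaca* (0.01, 0.98), *Acly* (0.16, 0.84), *Me1* (0.46, 0.509) and *Scd1* (0.50, 0.397) were not called in zinc-treated mice. For *Acly*, zinc-Dex replicate 1 had 7589 normalized counts against 3349 and 3346 in the other two. Zinc-Dex mice also differed from the untreated controls in *Srebf1* (LFC -1.91, SE 0.165, DESeq2 adjusted p 4.42e-29) and *Thrsp* (2.40, SE 0.346, 1.08e-10), 2 of the 9 genes, where 11.2% of 14221 genes tested were called, 5.59% higher and 5.63% lower. This comparison uses the same control mice as the first.

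The spread between mice of one group was itself large, and outside water-PBS 1 mouse led its group for most of the 9 genes. Zinc-Dex replicate 1 was the highest of its group for 8 of the 9 genes, all but *Srebf1*, and water-Dex replicate 3 for 8 of the 9, again all but *Srebf1*. In zinc-PBS, replicate 1 was highest for 7 of the 9, all but *Srebf1* and *Mlxipl*. In water-PBS no mouse led so clearly, and replicate 3 was highest for 5. *Me1* in zinc-Dex replicate 1 was 0.90 above the mean of its group on the log2 scale, *Acly* 0.79 and *Scd1* 0.70. The share of all genes led by the same mice is not given, so the pattern may not be particular to the 9. Over all genes with enough counts, replicates were compared by chi-square per degree of freedom, in which larger is further apart. Zinc-Dex replicate 1 was at 20.7 and 13.1 from replicates 2 and 3, which were at 10.9 from each other. Water-Dex replicate 3 was at 8.21 and 6.2 from replicates 1 and 2, which were at 7.5. As mice were not matched in any way that the labels give, the cause of these differences was not tested.

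**Figure D3:**
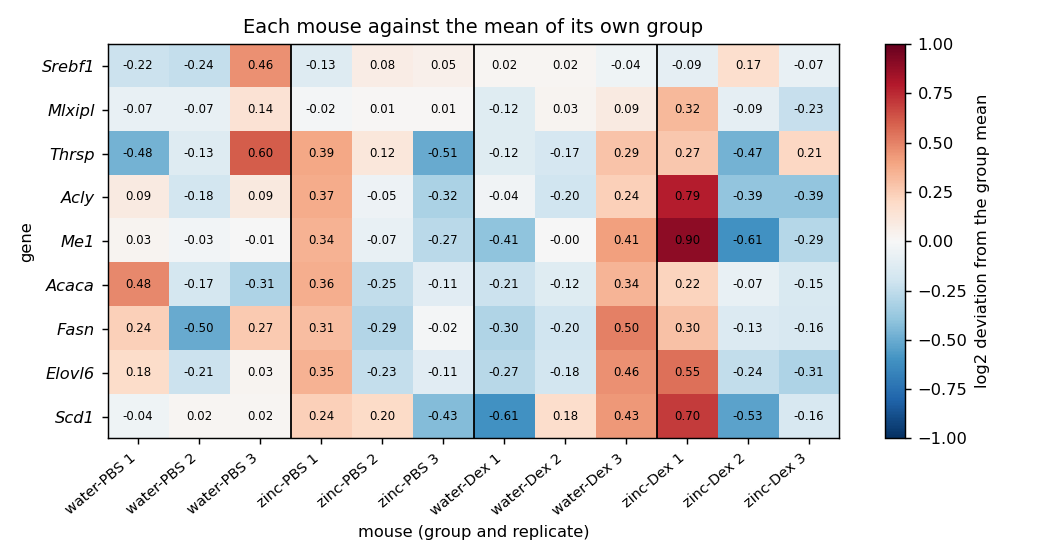
Difference of each mouse from the mean of its own group (log2 normalized count; color scale from -1 to 1), with genes in rows, mice in columns and black lines between groups. Zinc-Dex replicate 1 is above its group mean for each gene but *Srebf1*, most for *Me1* (0.90), and water-Dex replicate 3 is above it for the same 8 genes.

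To find transcripts with the most similar course, each gene was compared with the 9574 genes whose mean level reached 50 normalized counts by the root mean square difference of their centred log2 values over the 12 libraries, in which smaller is closer. The nearest to *Srebf1* were *Gnpda1* (0.201) and *Fzd7* (0.210), and to *Thrsp* they were *Pptc7* (0.286) and *Sds* (0.295). For *Me1* they were *G6pdx* (0.185) and *Pgd* (0.211), for *Acly* *Pklr* and *Sc5d* (both 0.231), and for *Scd1* *Ugt1a5* (0.209) and *Sult2a2* (0.221). For *Elovl6* they were *Cnst* (0.183) and *Tmem47* (0.211), for *Mlxipl* *Gldc* (0.091) and *Mettl4* (0.094), for *Fasn* *Gm5182* (0.199) and *Nlrc5* (0.232), and for *Acaca* *Gm5182* (0.122) and *Clcn6* (0.169). *Gm5182* is annotated as a processed pseudogene on chromosome 12. Within the 9 genes, *Me1* and *Scd1* were the closest pair (0.163), whereas no other of the 9 came nearer to *Srebf1* than 0.678 or to *Thrsp* than 1.05. The distance depends on how much a gene itself varied, so distances of different genes are not on 1 scale. The SD of the centred values was 0.841 for *Srebf1* and 1.284 for *Thrsp*. For the others it lay between 0.221 (*Mlxipl*) and 0.413 (*Scd1*).

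The effect of zinc alone was compared in PBS-injected mice. In this comparison 0 of the 9 genes were called, and 0.138% of 12307 genes tested were. By DESeq2, 1 of the 9 had an unadjusted p under 0.05, and by edgeR 0 were called and 1 had an unadjusted p under 0.05. The 1 gene by DESeq2 was *Srebf1*, whose 3 zinc-PBS mice (1265 to 1459.9 normalized counts) were all below the 3 controls (1595 to 2584). Its LFC was -0.48 (SE 0.162, unadjusted p 0.00316, DESeq2 adjusted p 0.309), and it was -0.21 without water-PBS replicate 3. *Mlxipl* was also lower without overlap (LFC -0.14, DESeq2 adjusted p 1), as were 6.01% of all genes tested. Each of the 9 LFCs was below 0, from -0.48 to -0.08 with a median of -0.20, against 50.3% of all genes tested. They come from the same 6 mice and none passed the test.

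In Dex-injected mice, zinc changed 0 of the 9 genes by this test, where 0.469% of 12786 genes were called. With DESeq2 0 of the 9 had an unadjusted p under 0.05, and with edgeR 0 were called and 1 had an unadjusted p under 0.05. *Srebf1* (LFC -0.08, 95% interval -0.41 to 0.25) and *Thrsp* (0.13, -0.55 to 0.81) lay near 0. *Acly* (0.59, DESeq2 adjusted p 0.614) and *Scd1* (0.46, 0.781) were the highest of the 9, and both dropped below 0.1 without zinc-Dex replicate 1 (LFC 0.09 and 0.03).

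**Figure D4:**
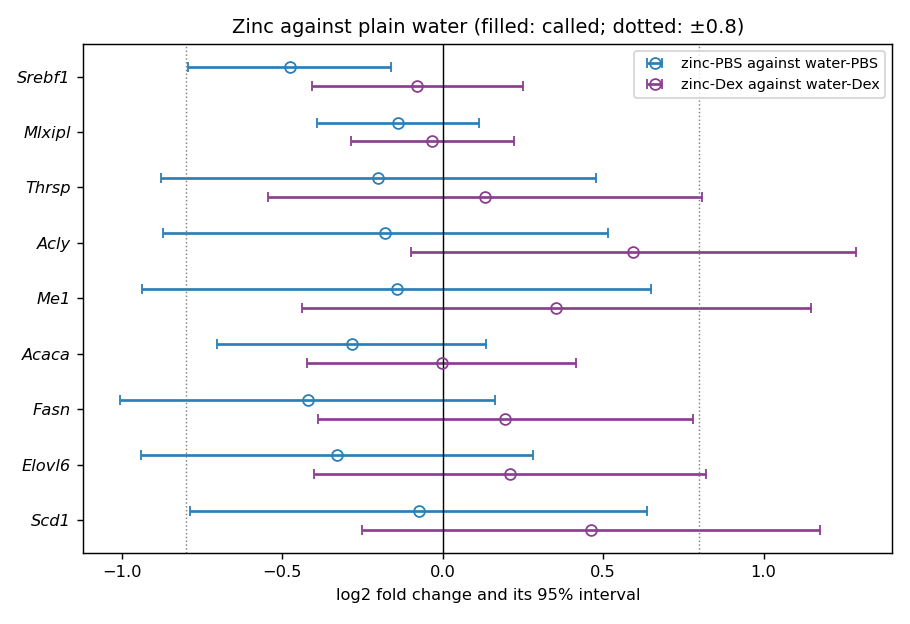
LFC of the 9 genes with zinc in PBS-injected (blue) and in Dex-injected mice (purple), with 95% intervals; no point is filled, as none was called. In PBS-injected mice all 9 points are below 0, from -0.48 for *Srebf1* to -0.08 for *Scd1*, and with Dex they range from -0.08 to 0.59.

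Whether zinc altered the Dex response was tested as an interaction. This was called for 0 of the 9 genes and for 0.0191% of 26185 genes tested, with 0 of the 9 at an unadjusted p under 0.05 by DESeq2 and 0 by edgeR (lowest edgeR adjusted p 0.943). The estimate was 0.40 for *Srebf1* (SE 0.233, unadjusted p 0.0882) and 0.33 for *Thrsp* (SE 0.489). The 95% interval for *Srebf1* was -0.06 to 0.85, which includes both no difference and a fall that was smaller by 0.85 on the log2 scale in zinc-treated mice. Each of the 9 estimates was above 0, from 0.11 to 0.77, while 47.2% of all genes tested were below 0, and the 9 share the same 12 mice.

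The other genes of the route were followed in lists. Of 5 genes around the carboxylation step, *Mid1ip1* was the 1 called with Dex, lower in both comparisons. Of all genes tested, 4.79% were called lower on normal water and 4.68% on zinc water. By adjusted p alone, 2 of the 5 were lower on normal water, against 9.91% of all genes tested. *Mid1ip1* is a relative of *Thrsp* whose protein promotes polymerization of acetyl-CoA carboxylase. It had 265, 388 and 1022 normalized counts in water-PBS and 65.0, 77.6 and 115 in water-Dex mice, so these related genes moved in opposite directions. The LFC was -2.70 (SE 0.467, DESeq2 adjusted p 1.42e-07), and -1.93 without water-PBS replicate 3, the highest control. In zinc-treated mice it was -2.94 (SE 0.470, DESeq2 adjusted p 8.9e-09). *Gm14493*, which shares exonic bases with *Mid1ip1* on the opposite strand, had 0 counts in every library.

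Among 13 genes of SREBP processing and its nuclear partners, 2 were called higher and 0 lower in each Dex comparison, against 4.89% and 4.79% of all genes tested on normal water and 5% and 4.68% on zinc water. *Insig2* encodes a membrane protein that holds SREBP precursors in the endoplasmic reticulum. It had 3173, 3468 and 2434 normalized counts in water-PBS and 12759, 10989.8 and 12610.2 in water-Dex mice (LFC 2.00, SE 0.171, DESeq2 adjusted p 1.2e-29), and with zinc its LFC was 2.66 (SE 0.171). The coactivator gene *Ppargc1b* rose by log2 1.32 and 0.98. *Insig1* (LFC -0.27, DESeq2 adjusted p 0.211) and *Scap* (-0.25, 0.157), whose product escorts SREBP to the Golgi, and the liver X receptor gene *Nr1h3* (0.16, 0.168) were not called in mice on normal water. The median LFC of the list was 0.15 on normal water and 0.09 on zinc water.

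Of 9 genes of acetyl-CoA and NADPH supply and of 12 of elongation and desaturation, 0 were called in either Dex comparison, against 9.68% of all genes tested in each. On normal water, *Idh1*, a cytosolic NADPH source (LFC 0.44, DESeq2 adjusted p 3.54e-06), and *Hsd17b12*, of the elongation cycle (0.26, 0.0224), passed the adjusted p alone.

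Of 11 genes that assemble triglyceride from fatty acids, 10 were tested in mice on normal water, and 3 were called higher and 1 lower, against 4.89% and 4.79% of all genes tested. *Lpin1*, a phosphatidate phosphatase gene, rose most, from 2421, 2825 and 741 normalized counts to 19218, 19281 and 17761 (LFC 3.23, SE 0.532, DESeq2 adjusted p 2.65e-08). Its relative *Lpin2* rose by log2 1.18 (DESeq2 adjusted p 0.0172), and lost the call without water-PBS replicate 2, water-PBS replicate 3 or water-Dex replicate 2 (adjusted p up to 0.142). *Pnpla3*, a lipid droplet protein gene, had an LFC of 1.30 (DESeq2 adjusted p 0.034) that was called in only 6 of 20 alternative fits, and the LFC was 0.69 without water-Dex replicate 3. *Acsl3*, an acyl-CoA synthetase gene, fell by 1.03 on the log2 scale. In zinc-treated mice 2 of the 11 were called higher, *Lpin1* (LFC 3.14) and *Lpin2* (1.70), and 0 lower, against 5% and 4.68% of all genes tested.

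**Figure D5:**
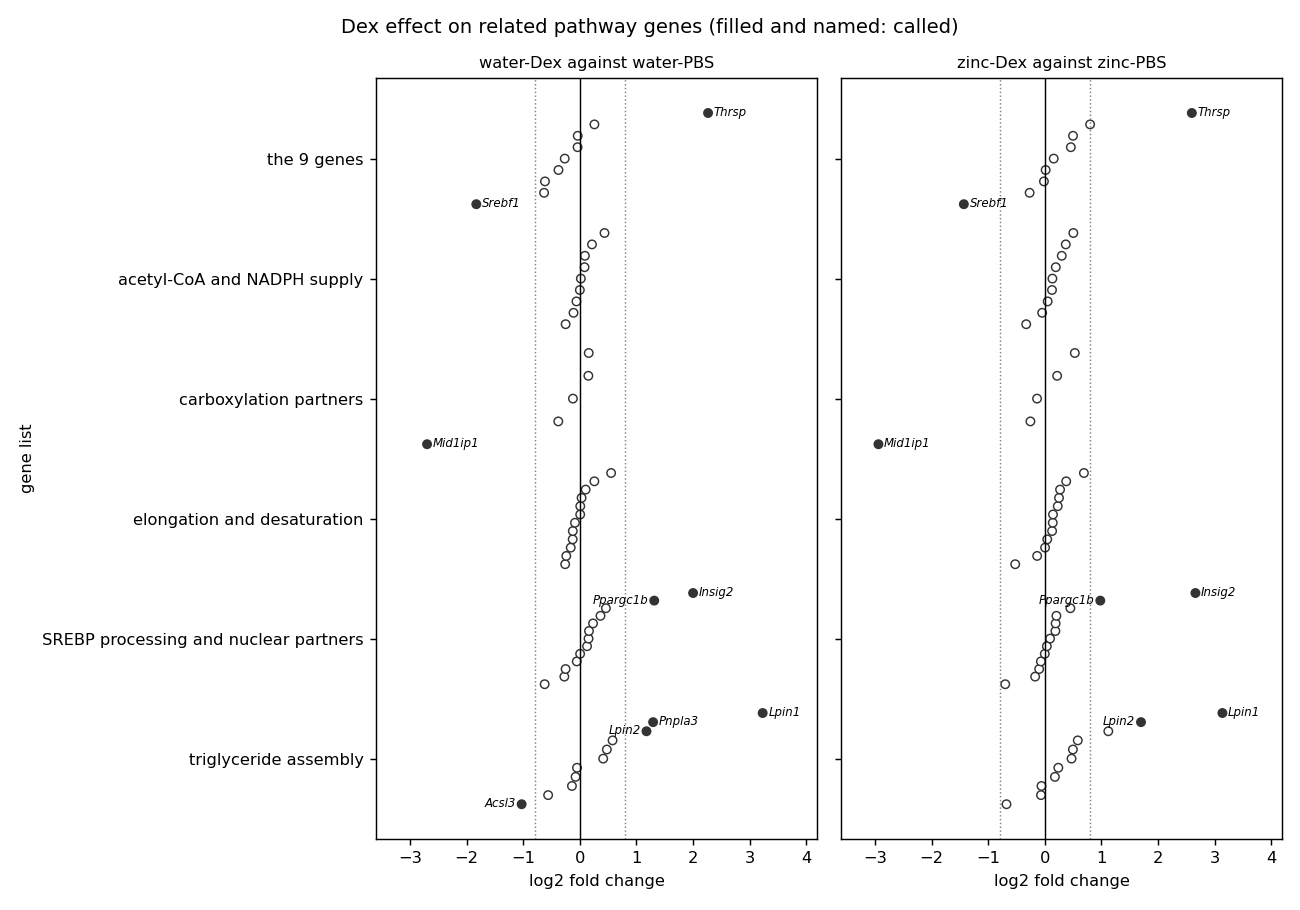
LFC with Dex in mice on normal water (left) and on zinc water (right) for the 9 genes and 5 lists of related genes; each point is a gene, filled and named where called, and dotted lines mark an LFC of 0.8 in either direction. *Srebf1* and *Mid1ip1* stand far to the left and *Thrsp*, *Insig2* and *Lpin1* to the right, while the lists of acetyl-CoA and NADPH supply and of elongation and desaturation hold no called gene.

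The genes of cholesterol synthesis and uptake, which the related factor SREBP-2 drives, served for comparison. The median LFC of these 19 genes with Dex was 0.03 on normal water and 0.31 on zinc water. With zinc, each of the 19 had an LFC above 0, from 0.06 to 0.68 in PBS-injected mice (median 0.29) and from 0.24 to 0.94 in Dex-injected mice (median 0.48). Of all genes tested, 6117 of 12307 and 6447 of 12786 were above 0. The 19 values of a comparison come from the same mice. With zinc, 0 of the 19 were called, and 0 and 6 were higher by adjusted p alone, against 0.211% and 0.915% of all genes tested. The 9 fatty acid genes had medians of -0.20 and 0.19 in these comparisons, and the difference between the lists was not tested.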

How the data were processed

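Total RNA from whole liver had been sequenced as single-end reads from stranded TruSeq libraries on an Illumina NextSeq. The authors mapped reads to mm10 with HISAT2 2.0.4 and counted them per Ensembl gene with featureCounts, without multimapping reads. The deposited table holds raw counts, 1 column per mouse. The annotation release and strand setting of the counting are not given in the sources used here, so genes with an opposite-strand neighbour are uncertain.

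Symbols, coordinates and exon lengths came from GENCODE M21 (GRCm38), in which 54723 of 54838 identifiers had a symbol. DESeq2 1.42.0 (R 4.3.3) was fitted to the 12 libraries with 1 coefficient per group, with Wald tests, unshrunken LFCs and default filters, following the study's methods. Fits were tested on simulated data. Between replicates of a group, the variance was 6.2 to 20.7 times that of counting noise (chi-square per degree of freedom), so none was a duplicate within its group. Libraries of different groups were not compared in this way. The alternatives were edgeR 4.0.16 (quasi-likelihood), TMM factors, only genes with at least 10 counts in 3 libraries, the replicate number as a term, only the libraries compared, no fold threshold, no independent filtering, no Cook's distance filter, and leaving out each library. Pathway genes were named if called, with some not reported here, up to 4 per list if their mean reached 50 normalized counts, and the *Idh1*, *Hsd17b12*, *Insig1*, *Scap* and *Nr1h3* values, with those of the marker genes, were chosen after their values were seen. The 9 genes and all lists were chosen with earlier results of these data known. With 3 mice per group, the spread is estimated over all groups.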

Additional observations from a re-analysis of the deposited data

How the results depend on the processing

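The number of the 9 genes called stayed within 1.5 times its value in each alternative of all 6 comparisons where it was above 0, and at 0 in the other 3. The replicate numbers did not pair the mice, since deviations of same-numbered mice correlated between -0.204 and 0.191 and 2 of 12 libraries were closest to their own number, and the fit with the replicate block called 2 of the 9 genes in each Dex comparison and 0 in each zinc comparison. The 2 called genes, *Srebf1* and *Thrsp*, kept direction and call in every alternative fit of the 3 comparisons that called them. LFCs near 0 changed sign when 1 library was left out. With Dex on normal water the LFC then lay between -0.46 and 0.012 for *Acaca*, -0.26 and 0.14 for *Me1*, -0.26 and 0.21 for *Scd1*, and -0.0086 and 0.39 for *Elovl6*. With Dex on zinc water it lay between -0.18 and 0.15 for *Fasn*, -0.11 and 0.22 for *Acaca*, -0.35 and 0.37 for *Acly*, and -0.13 and 0.73 for *Me1*. With zinc in PBS-injected mice it lay between -0.41 and 0.16 for *Thrsp* and -0.19 and 0.11 for *Scd1*. With zinc in Dex-injected mice it lay between -0.21 and 0.080 for *Mlxipl*, -0.12 and 0.19 for *Acaca*, -0.24 and 0.62 for *Me1*, and -0.12 and 0.48 for *Elovl6*. For zinc plus Dex against the controls it lay between -0.53 and 0.18 for *Acly*, -0.42 and 0.0087 for *Acaca*, -0.27 and 0.58 for *Me1*, and -0.0079 and 0.66 for *Scd1*. The interaction lay between -0.031 and 0.54 for *Thrsp*, -0.073 and 0.22 for *Mlxipl*, and -0.10 and 0.76 for *Me1*. These fits have 1 mouse fewer, and any other cause was not tested. With 3 mice per group, the 95% intervals of the enzymes reach LFCs of 0.8 or beyond in several comparisons, so changes of that size may have been missed.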

Other observations

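In Dex-injected mice, zinc was accompanied by higher levels of some genes beside the 9. *Acacb*, which encodes the acetyl-CoA carboxylase at the mitochondrial surface, had 1561, 1945 and 1795 normalized counts with Dex alone and 3517, 2766 and 3069 with zinc and Dex. The LFC was 0.82 (SE 0.178, DESeq2 adjusted p 0.0014), where 0.469% of 12786 genes tested were called. The gene was not called by edgeR (LFC 0.82, edgeR adjusted p 0.061), with the replicate block (LFC 0.7995), or without water-Dex replicate 1 or zinc-Dex replicate 1 (LFC 0.74 and 0.72). Without Dex, the mean of *Acacb* was 2160 normalized counts in zinc-PBS and 1585 in water-PBS mice, and it was not called there. *Scd2*, a desaturase gene with low counts here, had an LFC of 1.08 (DESeq2 adjusted p 0.048) that rested on zinc-Dex replicate 1, with 390 normalized counts against 126 and 163 in the other two, and was 0.43 without that mouse (adjusted p 0.664).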
